A study of Nicotiana tabacum with 12 samples.

Results

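Line L15 is a transgenic tobacco (*Nicotiana tabacum*) line of the cultivar Xanthi NN that expresses *DcLCYB1*, a lycopene β-cyclase gene of carrot. The 12 libraries of the study are 3 of L15, 3 each of the *DcLCYB1* lines L14 and L16, and 3 of the wild type, which is the same cultivar without the transgene. The members here are the 6 libraries labelled as line L15 or as wild type, which were compared with each other, and L14 and L16 serve to show what was changed in L15 only. All libraries are leaf RNA of 5-week-old plants. The labels describe germination on MS medium with sucrose and kanamycin for wild type and transgenic seeds alike, and the study took a leaf of the same position from each plant for its molecular measurements. L15 is a single transgenic line, so from its comparison with the wild type alone a change cannot be told apart from a property of that line. The promoter that drives the transgene is not given in the sources used here, and the level of the transgene was not analysed here.

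Lycopene β-cyclase closes the rings at the ends of lycopene and so forms β-carotene in the plastid. β-carotene is the parent of the xanthophylls, which take part in light harvesting and photoprotection, and of the hormones abscisic acid and strigolactone. Tobacco is an allotetraploid, with gene copies from both of its ancestral species, and reads that fit several copies equally well are not counted on any gene. The QuantSeq 3' mRNA-Seq kit reads the end of the polyadenylated transcript, so a count does not grow with the length of the transcript. In leaf RNA, fewer cells of a type and less RNA per cell cannot be told apart.

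The files list 35519 genes by NiTAB identifier, which gives the scaffold of the NiTAB 4.5 genome and the order of the gene on it, and neither the files nor the reference table used here pair these identifiers with gene names. The functions of the genes, the carotenoid pathway and the markers of leaf tissue were therefore not analysed here, and only a few identifiers are printed. Gene counts ranged from 13032294 to 21067852 in the L15 libraries (median 19259493) and from 12887911 to 24343174 in the wild type libraries (median 16527679). Levels are given as CPM, which are counts scaled to the TMM-adjusted library size, and 3 counts in a library, taken as the detection floor, were between 0.136 and 0.237 CPM in L15 and between 0.144 and 0.231 CPM in the wild type. Such floors cover counting error only. Of the synthetic spike-in RNAs added to each library, SIRV4 took 7.33%, 6.98% and 6.34% of the spike-in counts in the L15 libraries, against 5.38%, 5.31% and 5.19% in the wild type libraries. SIRV7 took 2.52%, 2.55% and 2.16% in L15, against 1.74%, 1.59% and 1.67% in the wild type. For both shares the groups did not overlap (exact permutation test, two-sided, p = 0.1, the smallest that 20 splits of 3 against 3 libraries allow), so these shares moved with the genotype. The other lines were shifted from the wild type in the same way. SIRV4 took 7.55%, 6.94% and 6.58% in L14 and 7.77%, 7.42% and 6.50% in L16. SIRV7 took 2.78%, 2.20% and 2.07% in L14 and 2.85%, 2.57% and 1.80% in L16. Comparisons of L14 and L16 with the wild type therefore carry this shift too.

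In L15, 1600 genes were upregulated and 1290 were downregulated relative to the wild type, out of 18823 genes tested. These were 8.50% and 6.85% of the tested genes, 15.4% in all, with the edgeR quasi-likelihood test and a Benjamini-Hochberg adjusted p under 0.05. At an unadjusted p under 0.05 the number was 5522. The median log2 fold change was 1.07 among the upregulated genes (quartiles 0.75 and 1.72) and -0.84 among the downregulated genes (quartiles -0.62 and -1.30), beside 0.01 over all tested genes. The 41 upregulated and 8 downregulated genes with no counts in one of the groups did not move these medians when they were set to the bound that the detection floor gives, which left 1.07 and -0.84. The counts depended on single libraries. They were 837 upregulated and 526 downregulated genes without L15 replicate 1, 1006 and 662 without L15 replicate 2, and 947 and 751 without wild type replicate 2. With the summed share of SIRV4 and SIRV7 as a covariate, 329 genes were upregulated and 202 downregulated, of which 274 and 131 were among those above. The covariate overlaps with genotype, so their parts in the counts cannot be told apart.

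Large changes were mostly upward, and the smallest ones more often downward. Among the called genes with an estimate over 8-fold, 166 were upregulated and 70 downregulated (70.3% higher in L15), and 41 and 8 of these had no counts in one group, where the estimate is no measure of size. Without these the numbers were 125 and 62 (66.8% higher), and with them at the bound that the detection floor gives they were 135 and 70 (65.9% higher). From 4- to 8-fold, 134 were upregulated and 75 downregulated (64.1% higher), and from 2- to 4-fold, 569 and 359 (61.3% higher). Between 1.5- and 2-fold the directions were close to even, with 533 upregulated and 513 downregulated genes (51.0% higher). Under 1.5-fold, 198 were upregulated and 273 downregulated (42.0% higher). The balance over all called genes, 55.4% higher, therefore changed with the size that was asked for, and it was 63.3% for the 869 upregulated and 504 downregulated genes of at least 2-fold.

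Many large estimates did not pass the test. Of the 2742 genes with at least a 2-fold difference, 1373 were called and 1369 (49.9%) were not. Those not called had few reads, with a median level of 0.741 CPM and a median standard error of 0.677 on the log2 scale, against 4.02 CPM and 0.358 for those called. A missing call among such genes does not show that they were unchanged. Of the tested genes under 1.5-fold, 3.73% were called, and of those over 8-fold, 88.4%.

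**Figure D1:**
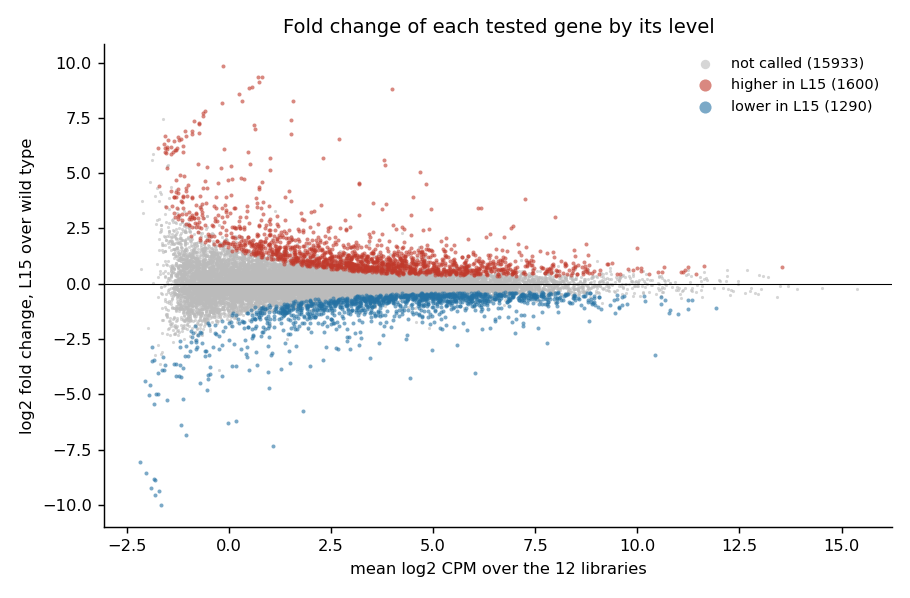
Log2 fold change of L15 over wild type (vertical axis) against the mean log2 CPM over the 12 libraries (horizontal axis), with 1 point for each of the 18823 tested genes. The 1600 upregulated genes (red) and 1290 downregulated genes (blue) lie farther from 0 at low levels, where fitted values of genes with no counts in one group depend on the fit and are no measure of size.

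The direction of the changes also differed with the level of the gene. The tested genes were divided into 10 classes of equal number by their mean log2 CPM over the 12 libraries. In the lowest class, with a median of 0.495 CPM, 103 genes were upregulated and 53 downregulated, and in the class of rank 3, with a median of 1.43 CPM, 116 and 53. In the class of rank 8, with a median of 19.7 CPM, the numbers were 238 and 174. The order was turned round in the highest classes. In the class of rank 9, with a median of 42.9 CPM, 208 genes were upregulated and 243 downregulated, and in that of rank 10, with a median of 152 CPM, 212 and 271. All tested genes, called or not, drifted the same way with level. Their median log2 fold change was 0.11 in the lowest class, -0.015 in that of rank 8, -0.047 in that of rank 9 and -0.055 in the highest. The part of this drift in the directions of the called genes was not tested. The share of genes called was 8.28% in the lowest class and 5.15% in the class of rank 2, and from there it grew with level to 25.7% in the highest class, while the median standard error fell to 0.147 in the highest class, against 0.794 in the lowest. In the lowest class, 32 of the upregulated and 8 of the downregulated genes had no counts in one group, and with these at the bound of the detection floor the median log2 fold changes of the called genes were 2.98 and -3.67, against fitted medians of 3.94 and -3.68. In the highest class, which had no such genes, the medians were 0.73 and -0.64. Among the 100 genes with the highest mean level, 10 were upregulated and 10 downregulated, 5 of them by at least 2-fold.

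**Figure D2:**
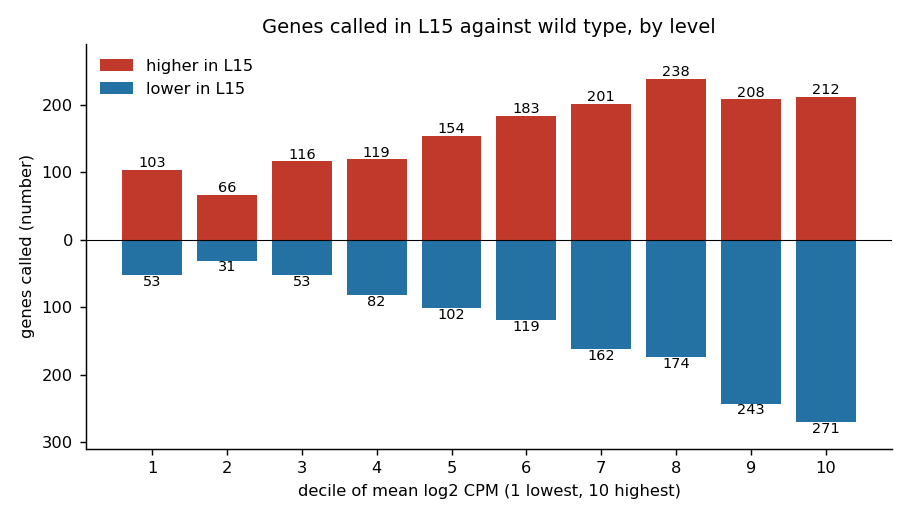
Number of genes upregulated (red, above 0) and downregulated (blue, below 0) in L15 against wild type, for 10 classes of about 1882 tested genes ranked by mean log2 CPM. Upregulated genes outnumber downregulated ones in the classes of rank 1 to 8, while 243 against 208 and 271 against 212 genes were downregulated in the classes of rank 9 and 10.

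The downregulated genes were the more abundant ones, with a median over the 12 libraries of 17.3 CPM, against 10.1 CPM for upregulated and 4.87 CPM for all tested genes. The upregulated genes summed to 114353, 108586 and 109363 CPM in the L15 libraries, against 66201, 59294 and 68780 CPM in the wild type libraries. The downregulated genes summed to 79382, 85689 and 91988 CPM in L15, against 143337, 168952 and 167145 CPM in the wild type. These sums describe the calls and are not a further test, since the genes were chosen by the same counts.

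A few abundant genes made up much of these sums, and the 10 genes with the largest change held 29.8% of the summed rise and 33.3% of the summed fall. The largest rise was that of a gene on scaffold Nitab4.5_0000363, which was at 14794, 13890 and 10792 CPM in the L15 libraries, against 7473, 7871 and 7998 CPM in the wild type libraries. All L15 libraries lay above all wild type libraries, at a log2 fold change of 0.76 ± 0.18 (SE; adjusted p = 0.0104). The largest fall was that of a gene on scaffold Nitab4.5_0000037, which was at 697, 761 and 867 CPM in L15, against 2628, 8600 and 10564 CPM in the wild type (log2 fold change -3.23 ± 0.40, SE; adjusted p = 7.23e-05). Its level was even among the L15 libraries and uneven among the wild type libraries, of which replicate 1 was much the lowest. The next in size was a gene on scaffold Nitab4.5_0000143, at 2746, 3426 and 3889 CPM in L15, against 7522, 8087 and 5826 CPM in the wild type (log2 fold change -1.09 ± 0.23, SE; adjusted p = 0.00497). These genes were singled out after their values were seen.

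Most called genes showed no overlap between the libraries of the genotypes, a share that their choice by the same libraries raises. In 1545 of the 1600 upregulated genes every L15 library lay above every wild type library, and in 1248 of the 1290 downregulated genes every L15 library lay below, or 96.6% and 96.7%. Over all tested genes, called or not, the libraries of the genotypes did not overlap in 34.1%, with L15 above in 17.1% and below in 17.0%. Of the remaining called genes, 54 upregulated and 28 downregulated genes had 2 of the 3 L15 libraries outside the wild type range. Only 1 such library was found for 1 upregulated and 9 downregulated genes, and none for 5 downregulated genes. The L15 libraries were closer to each other than the wild type libraries were. The median SD of the log2 CPM of the upregulated genes was 0.214 among L15 and 0.317 among wild type libraries, and that of the downregulated genes was 0.184 and 0.207 (n = 3 each). The common biological coefficient of variation was 0.186 in L15, 0.208 in L14, 0.238 in L16 and 0.262 in the wild type. Over the tested genes, pairs of L15 libraries differed by a root mean square of 0.524 to 0.662 in log2 CPM and pairs of wild type libraries by 0.722 to 0.759, while an L15 and a wild type library differed by 0.858 to 1.03.

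In a PCA of the 6 libraries alone, on the log2 CPM of the 500 most variable genes, PC1 held 72.3% of the variance and the L15 libraries lay between -35.0 and -27.6, against 25.6 to 36.1 for the wild type libraries. PC2 held 9.6% and followed the spread within the wild type, whose libraries lay at 17.3, 4.61 and -20.3, while those of L15 lay at -4.61, -1.09 and 4.14. Nothing in the sources used here says how the biological replicates of a genotype were grown apart, so the p-values measure the spread between these samples.

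Some genes were found in L15 and not in the wild type, or in the wild type and not in L15. Of all listed genes, 65 had at least 3 counts in every L15 library and no counts in any wild type library, and 30 had at least 3 counts in every wild type library and none in any L15 library. Most of them were weak, with a median of 9 counts over the libraries where they were found for the 65 genes and 8.83 for the 30. The highest counts were 193 in an L15 library and 165 in a wild type library, and 6 genes of each set averaged at least 50 counts. Of the 65 genes, 36 were tested and 34 called, and of the 30 genes, 8 were tested and all 8 called. Over all tested genes 15.4% were called. The choice of these genes by their counts in both groups raises their share, so the calls are no further support. None of the 65 genes was particular to L15, since each had counts in at least 1 library of L14 or L16, and 42 had counts in all 6. Of the 30 genes without counts in L15, 16 were also without counts in L14 and L16, and no gene was without counts in L15 alone while having at least 3 counts in each of the other 9 libraries. The 65 genes lay on 63 scaffolds and the 30 genes on 29.

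The printed identifiers were taken by rule from the called genes whose groups did not overlap, with at least 10 counts in each of the 6 libraries and a mean of at least 50 in the higher group. Of the 1161 upregulated genes that met these conditions, Nitab4.5_0001198g0330 had the largest log2 fold change. It had 1174, 1334 and 1018 counts in the L15 libraries, against 31, 35 and 33 counts in the wild type libraries, or 67.1 ± 11.5 CPM in L15 and 2.03 ± 0.407 CPM in the wild type (SD, n = 3 each). The log2 fold change was 5.06 ± 0.20 (SE), with an adjusted p of 1.9e-10 from edgeR's quasi-likelihood test. The spread within each genotype was small beside the difference between L15 and the wild type. The level was similar in the other lines, at 57.1 ± 3.94 CPM in L14 and 55.8 ± 8.13 CPM in L16 (SD, n = 3 each).

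Of the 1132 downregulated genes that met the conditions, Nitab4.5_0000365g0010 had the most negative log2 fold change. It had 27, 17 and 13 counts in the L15 libraries, against 119, 674 and 2513 counts in the wild type libraries, or 1.06 ± 0.306 CPM in L15 and 57.0 ± 57.6 CPM in the wild type (SD, n = 3 each). The L15 libraries were low throughout, while the wild type libraries differed from each other by more than 10-fold. The log2 fold change was -5.75 ± 0.73 (SE; adjusted p = 0.000101), and L14 and L16 were at 2.10 ± 1.04 and 1.78 ± 0.665 CPM (SD, n = 3 each). With the SIRV4 and SIRV7 covariate the call was lost, at an adjusted p of 0.0605, where the other 22 alternatives left it in place. Without wild type replicate 3, the highest library, the log2 fold change was -4.57.

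**Figure D3:**
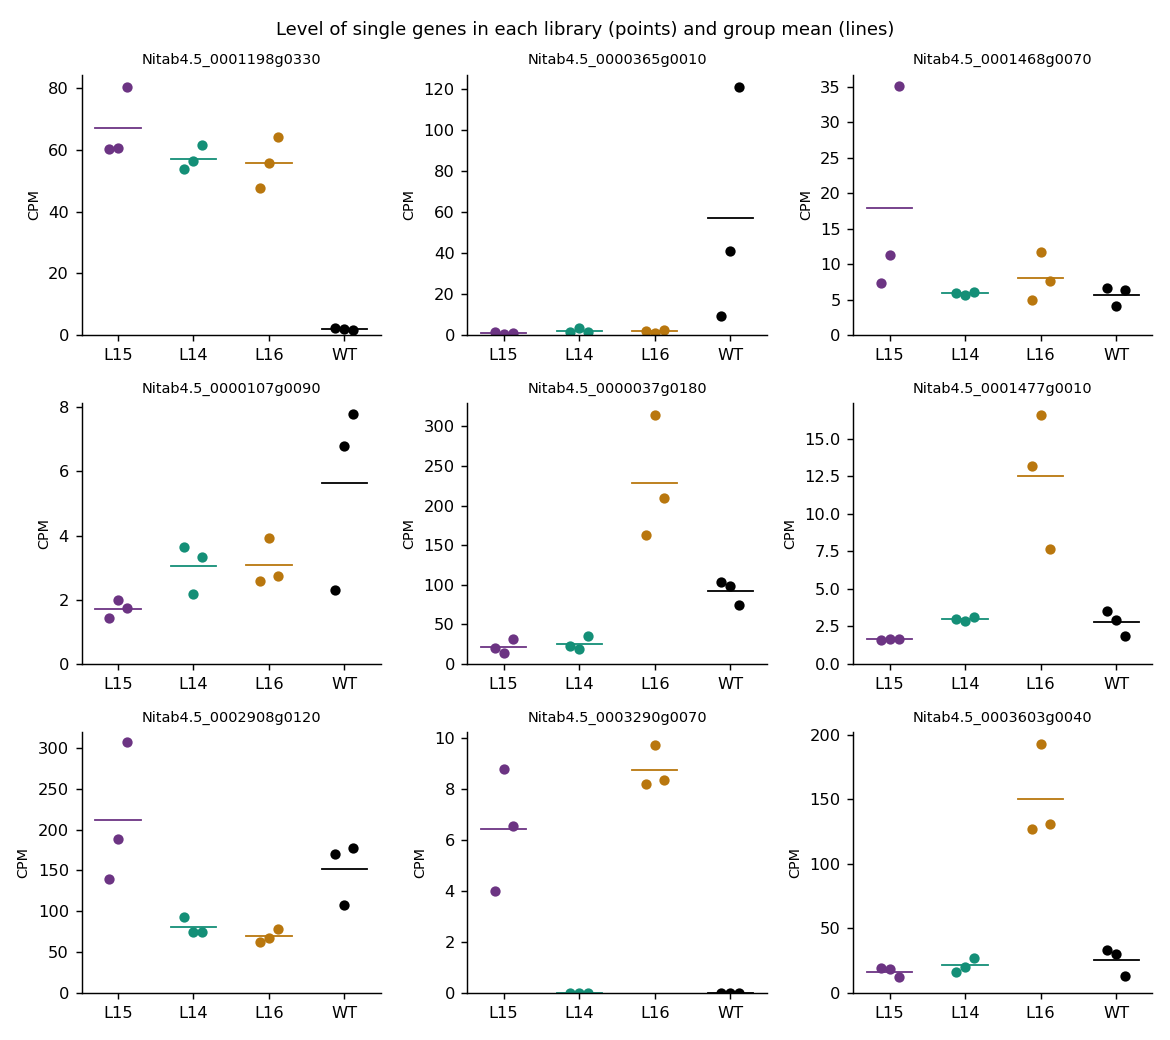
CPM (linear axes that start at 0) of 9 genes in each library, with L15, L14, L16 and wild type (WT) from left to right, points for the 3 libraries of a genotype and a line for their mean. The first 4 panels are the genes printed by rule and the other 5 are the genes that differed between L15 and the mean of L14 and L16, of which Nitab4.5_0002908g0120 is the one with all L15 libraries above those of both other lines.

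The scaffold of Nitab4.5_0001198g0330 stood apart from the rest of the genome. Of its 37 listed genes, 20 were tested, and 14 of these (70.0%) were upregulated in L15, 1 was downregulated and 5 were not called, beside 8.50% upregulated over all tested genes. The groups did not overlap for any of the 14. Among the 602 scaffolds with at least 10 tested genes it was the only one with at least 50% of them upregulated, and the next had 45.5% (5 of 11 genes). No scaffold had 50% downregulated, and 73 had no called gene. The scaffold was noticed after the results were known and no test was made of it.

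The upregulated genes lay in unbroken series among the tested genes of the scaffold, at places 1 to 3, 5 to 9, 11 to 15 and 19 of the tested genes in the order of their identifiers. Gene 7 had 684, 548 and 516 counts in the L15 libraries, against 6, 14 and 15 counts in the wild type libraries, a log2 fold change of 5.58 ± 0.24 (SE; adjusted p = 5.59e-10). Gene 8 was the most abundant, with 1891, 2336 and 1519 counts in L15, against 339, 411 and 470 counts in the wild type (2.13 ± 0.17, SE; adjusted p = 6.59e-07). Gene 9 had 1413, 1354 and 751 counts in L15, against 30, 51 and 60 counts in the wild type (4.53 ± 0.18, SE; adjusted p = 1.9e-10). The neighbouring genes thus moved by different amounts from different starting levels.

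The next series held gene 12, with 393, 448 and 320 counts in L15, against 14, 3 and 30 counts in the wild type (4.56 ± 0.35, SE; adjusted p = 6.13e-07). Gene 14 had 173, 162 and 107 counts in L15, against 0, 1 and 0 counts in the wild type, which is too few for a ratio. Gene 15 beside it was well expressed in both, with 1520, 1824 and 1377 counts in L15, against 830, 997 and 1101 counts in the wild type, and its change of 0.60 ± 0.14 on the log2 scale (SE; adjusted p = 0.0111) was the smallest of the 14. The downregulated gene was gene 18, with 39, 18 and 12 counts in L15, against 52, 31 and 84 counts in the wild type (-1.38 ± 0.44, SE; adjusted p = 0.045).

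Of the 14 genes, 7 were over 8-fold higher by the fitted estimate, 5 between 2- and 8-fold, and 2 under 2-fold. The 7 include gene 14 and 2 more with very few wild type counts, so their sizes are uncertain. These are gene 11, with 0, 1 and 3 counts in the wild type libraries, and gene 13, with 2, 3 and 2 counts. Together the 20 tested genes summed to 433, 430 and 502 CPM in the L15 libraries, against 141, 131 and 119 CPM in the wild type libraries. The genes were not particular to L15. The median log2 fold change of the 14 genes was 2.60 in L15, 2.26 in L14 and 2.32 in L16, comparisons that share the 3 wild type libraries, and 0 of the 20 differed between L15 and the mean of L14 and L16 with edgeR or DESeq2 (0 at an unadjusted p under 0.05 with either). Between 11 and 14 genes of the scaffold were upregulated under each of the 23 alternative settings. Whether counting used the strand is not given in the sources used here, so reads of overlapping neighbours on this scaffold may not be told apart.

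**Figure D4:**
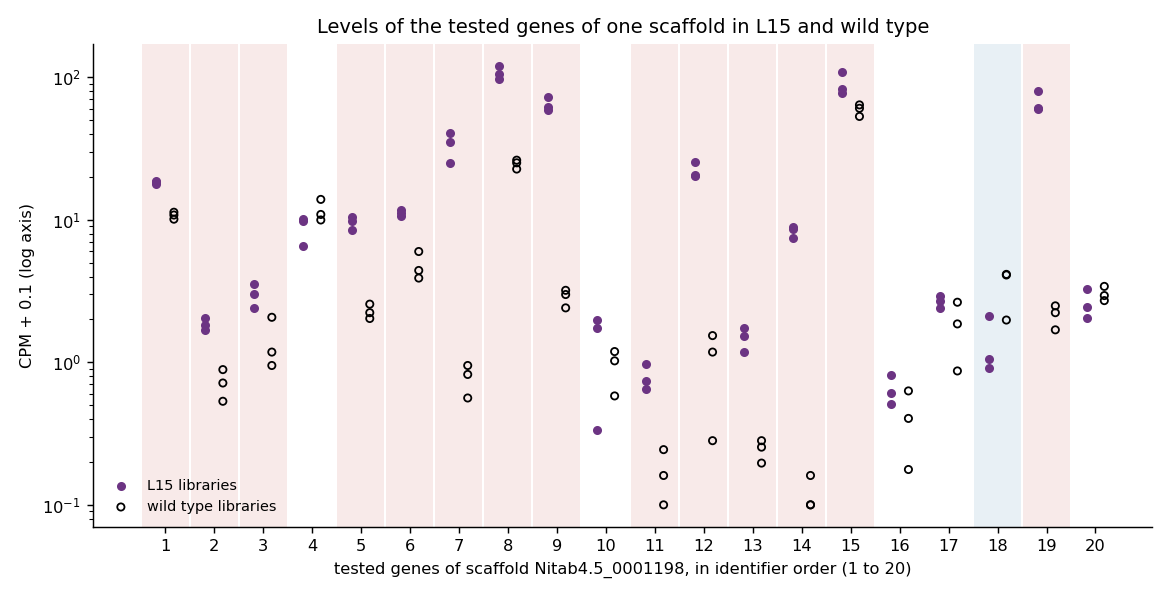
CPM + 0.1 on a log axis for the 20 tested genes of scaffold Nitab4.5_0001198, numbered in the order of their identifiers, in the 3 L15 libraries (filled, left) and the 3 wild type libraries (open, right). Pink bands mark the 14 upregulated genes, where every L15 library lies above every wild type library, and the blue band marks the downregulated gene.

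Away from this scaffold, changed genes lay beside genes changed in the same direction more often than tested genes as a whole. Neighbours were taken as tested genes with consecutive listed identifiers, which gave 10312 pairs. Counting each pair from both sides and leaving out scaffold Nitab4.5_0001198, 194 of 1751 neighbours of an upregulated gene were upregulated (11.1%) and 112 were downregulated (6.4%). For comparison, over all scaffolds 8.59% of the neighbours of any tested gene were upregulated and 6.86% downregulated. Of 1413 neighbours of a downregulated gene, 156 were downregulated (11%) and 112 upregulated (7.93%). Over all scaffolds, series of 3 or more neighbouring genes were few, with 7 of upregulated and 4 of downregulated genes. Those of upregulated genes include series on scaffold Nitab4.5_0001198, among them the longest, of 5 genes. Called genes lay on 1569 of the 2996 scaffolds with a tested gene. Neighbours share reads where genes overlap and may be tandem copies, and the pairs were not tested.

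Of the genes called in L15, 142 upregulated and 130 downregulated ones were called in L15 only, that is, they did not pass the threshold in the same direction in L14 or L16. They were 8.88% of the upregulated and 10.1% of the downregulated genes. The changes were modest, with a median log2 fold change of 0.90 for the upregulated and -0.90 for the downregulated genes, and 62 and 56 of them reached 2-fold. The evidence for them was close to the threshold. The median adjusted p in L15 was 0.0339 and 0.0318, against 0.0161 and 0.018 for all upregulated and downregulated genes. The median level was 6.38 and 5.97 CPM.

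The same genes had smaller estimates in the other lines and not estimates of 0. The median log2 fold change of the 142 upregulated genes was 0.90 in L15, 0.53 in L14 and 0.49 in L16, and that of the 130 downregulated genes was -0.90 in L15, -0.47 in L14 and -0.48 in L16. The comparisons share the wild type libraries, and the L15 values chose the genes, so that the larger L15 medians are not evidence of a difference. The standard errors were alike, with medians of 0.263 in L15, 0.264 in L14 and 0.265 in L16 for the upregulated genes. At an unadjusted p under 0.05, 83 of the 142 genes differed from the wild type in L14 and 72 in L16, and 34 did in neither line. Of the 130 downregulated genes, 75 differed in L14 and 61 in L16, and 36 did in neither.

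Tested against the other lines directly, 0 of these 272 genes differed between L15 and the mean of L14 and L16 at an adjusted p under 0.05 (edgeR quasi-likelihood test), where 0.0266% of all tested genes did. DESeq2's Wald test called 1 of the downregulated genes and 0 of the upregulated genes, and edgeR without the filter on low counts called 2 and 4. At an unadjusted p under 0.05, 43 of the upregulated genes (30.3%) and 37 of the downregulated genes (28.5%) differed, beside 4.73% of all tested genes, a share that the choice of the genes by their L15 counts raises. Against L16 alone 2 upregulated genes and 1 downregulated gene passed the adjusted threshold, beside 0.712% of all tested genes. With DESeq2 the numbers were 7 and 3, and with edgeR without the filter on low counts 10 and 3. Against L14 alone, 0 did with edgeR, 1 of each direction did with DESeq2, 3 upregulated and 6 downregulated genes did with edgeR without the filter, and 23 upregulated and 24 downregulated genes had an unadjusted p under 0.05 with edgeR. Of all tested genes, 0.0159% passed against L14. All 3 L15 libraries lay above all 9 other libraries in 24 of the 142 genes, beside 0.457% of all tested genes, and below them in 21 of the 130 genes, beside 0.335% (in either direction, 0.792%), which the choice of the genes likewise raises. A call in L15 only was thus not backed by a called difference from the mean of the other lines, apart from those found by DESeq2 or without the filter. The counts moved with single libraries, to 42 and 23 without L15 replicate 1, 45 and 37 without L15 replicate 2, 80 and 76 without L15 replicate 3, 54 and 58 without wild type replicate 2, 252 and 237 without L16 replicate 1, and 187 and 230 without L16 replicate 2.

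**Figure D5:**
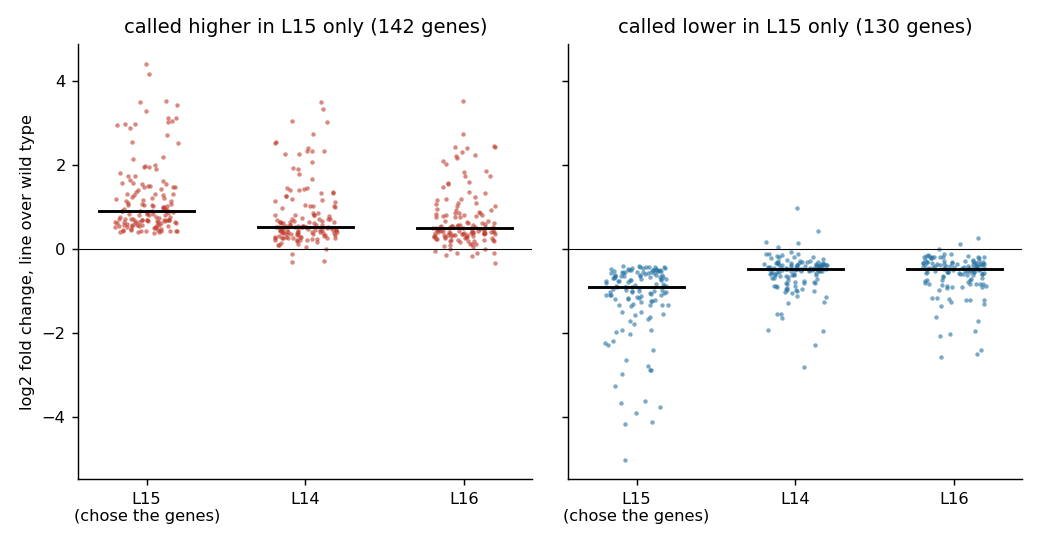
Log2 fold change against wild type in L15, L14 and L16 (1 point per gene, the bar is the median) for the 142 genes upregulated (left) and the 130 genes downregulated (right) in L15 only. The medians are 0.90, 0.53 and 0.49 on the left and -0.90, -0.47 and -0.48 on the right, and the L15 values are those that chose the genes.

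Among the genes higher in L15 only, Nitab4.5_0001468g0070 had the largest difference from the mean of L14 and L16 of the 98 that met the conditions for printing. It had 143, 249 and 446 counts in the L15 libraries, 94, 108 and 138 counts in L14 and 83, 234 and 120 counts in L16, against 86, 67 and 131 counts in the wild type libraries. Replicate 3 of L15 stood far above the others at 35.2 CPM, where the other L15 libraries were at 7.33 and 11.3 CPM and the wild type libraries at 6.62, 4.07 and 6.31 CPM. The log2 fold change was 1.65 ± 0.45 (SE; adjusted p = 0.022), and without L15 replicate 3 it was 0.72 with an adjusted p of 0.152. Without wild type replicate 2 it was 1.46 with an adjusted p of 0.0868. Its difference from the mean of L14 and L16 was 1.35 ± 0.36 (SE) and did not pass the test (adjusted p = 0.514), except without the filter on low counts (adjusted p = 9.85e-06).

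Among the 97 such genes lower in L15 only, Nitab4.5_0000107g0090 had the most negative difference from the mean of the other lines. It had 28, 44 and 22 counts in the L15 libraries, 58, 42 and 75 counts in L14 and 43, 78 and 43 counts in L16, against 30, 112 and 162 counts in the wild type libraries. In CPM the L15 libraries were at 1.43, 2.00 and 1.74, below the wild type libraries at 2.31, 6.80 and 7.80, and replicate 1 of the wild type lay among the libraries of L14 and L16. The log2 fold change was -1.72 ± 0.38 (SE; adjusted p = 0.00755). The difference from the mean of L14 and L16 was -0.83 ± 0.35 (SE; adjusted p = 0.992). The call against the wild type was lost with the SIRV4 and SIRV7 covariate (adjusted p = 0.174) and with the first component of the spike-ins (adjusted p = 0.0866).

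Over all 18823 tested genes, 5 differed between L15 and the mean of L14 and L16 (adjusted p under 0.05; 890 at an unadjusted p under 0.05), and none of the 5 was among the genes called in L15 only. They are named here after their values were seen. In 3 of them it was L16 that stood apart. Nitab4.5_0000037g0180 was at 19.6, 14.4 and 31.6 CPM in L15, 22.5, 19.3 and 35.6 CPM in L14, 163, 314 and 209 CPM in L16 and 103, 99.1 and 74.9 CPM in the wild type, and it was downregulated in L15 (log2 fold change -2.09 ± 0.30, SE; adjusted p = 0.000249), a call that was lost with the SIRV4 and SIRV7 covariate (-1.60, adjusted p = 0.073). Nitab4.5_0003603g0040 was at 19.2, 18.4 and 12.2 CPM in L15, 16.5, 20.2 and 27.2 CPM in L14, 127, 193 and 131 CPM in L16 and 33.0, 29.8 and 13.0 CPM in the wild type. Nitab4.5_0001477g0010 was at 1.59, 1.68 and 1.66 CPM in L15, 3.01, 2.87 and 3.14 CPM in L14, 13.2, 16.6 and 7.66 CPM in L16 and 3.54, 2.91 and 1.88 CPM in the wild type. Every L16 library of the 3 genes lay above all libraries of L15, L14 and the wild type. Nitab4.5_0003603g0040 and Nitab4.5_0001477g0010 did not pass the test in L15 against the wild type, at adjusted p-values of 0.194 and 0.127. The first of them passed without wild type replicate 3 (log2 fold change -0.92, adjusted p = 0.0175) and without the filter on low counts (-0.57, adjusted p = 0.0321). For Nitab4.5_0001477g0010 the L15 libraries lay below those of all other genotypes.

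Nitab4.5_0003290g0070 divided the lines. It had 78, 193 and 83 counts in the L15 libraries and 136, 194 and 131 counts in L16, and no counts in any library of L14 or of the wild type. Against the wild type the level in L15 was at least 34.7-fold higher, taking 3 counts per library as the floor, and against L14 at least 40.5-fold higher. It passed the test against the wild type (adjusted p = 5.13e-06) and against L14 (adjusted p = 0.000175), and not against L16 (adjusted p = 0.667).

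Nitab4.5_0002908g0120 was the one gene of the 5 for which L15 lay above both other lines. It had 2705, 4163 and 3885 counts in the L15 libraries, against 1479, 1426 and 1695 counts in L14 and 1045, 1329 and 1222 counts in L16, with 2202, 1780 and 3679 counts in the wild type. In CPM, the 3 L15 libraries (139, 189 and 307) lay above all 6 libraries of the other lines, which reached at most 92.7. The wild type libraries were at 170, 108 and 177 CPM, so the lowest L15 library lay within their range and the others above it. The difference from the mean of L14 and L16 was 1.5 ± 0.20 on the log2 scale (SE; adjusted p = 0.0109), and the gene also passed against L16 (1.61 ± 0.24, SE; adjusted p = 0.00599) and not against L14 (1.39 ± 0.24, SE; adjusted p = 0.143). Against the wild type it did not pass in L15 (0.48 ± 0.24, SE; adjusted p = 0.192) except without the filter on low counts (0.49, adjusted p = 0.0419), while it was downregulated in L14 (-0.91 ± 0.24, SE; adjusted p = 0.021) and in L16 (-1.13 ± 0.24, SE; adjusted p = 0.00279). The largest adjusted p of the difference from the mean of L14 and L16 over the alternatives was 0.0557, without L14 replicate 3.

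The number of such genes moved to 1 without L14 replicate 3, 2 without L15 replicate 1 or without L15 replicate 2, 3 without L16 replicate 1, and 8 without wild type replicate 3. It was 85 without the filter on low counts and 38 with DESeq2's Wald test.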

How the data were processed

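Leaf RNA of L15, L14, L16 and wild type plants was sequenced by QuantSeq FWD 3' mRNA-Seq, in 3 libraries per genotype. The authors mapped the reads to NiTAB 4.5 with STAR and deposited the raw counts of each library, not normalized. The counting program and its strand setting are not given in the sources used here. Reads with several best alignments, reads outside genes and 99 spike-in sequences are listed apart and stayed out of library sizes and tests. Reads outside genes were 34.6% to 36.4% of the listed reads in L15 and 35.6% to 38.1% in the wild type, and reads not uniquely aligned 19.7% to 20.2% and 19.3% to 21.2%.

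Counts were tested with edgeR 4.0.16 in R 4.3.3 (quasi-likelihood test, TMM scaling, filterByExpr with a minimum of 10 counts, Benjamini-Hochberg threshold of 0.05), in one model of all 12 libraries. The genotypes share an estimate of the spread of each gene in this model, although the common biological coefficient of variation was 0.186 in L15 and 0.262 in the wild type. Standard errors were derived from the log2 fold change and its F statistic. L15 only means called in L15 and not called in the same direction in L14 or L16, and L15 was also tested against the mean of L14 and L16. Without gene names, the rule allowed 4 identifiers: the largest rise and fall, and the L15-only rise and fall farthest from L14 and L16. Alternatives were DESeq2 1.42.0, other scaling, filters and minimum fold changes, 6 libraries in place of 12, the replicate block, spike-in covariates and each library left out; the first spike-in component, and the alternatives of the scaffold and of the 5 genes, were added after seeing the data. The gene lists, the members and the rules were chosen with earlier results of these data known. When 200 of 18358 genes were changed in simulated counts, the L15 comparison recovered 34.3% of 2-fold and 71.1% of 4-fold changes, with 4.63% false calls. This was a smaller share of genes than the 15.4% called in the data, and only L15 was changed, so the rates need not hold for the data. No 2 libraries of a genotype agreed within counting noise.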

Additional observations from a re-analysis of the deposited data

Results flagged for a closer look

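L15 differed from the mean of L14 and L16 for 5 of 18823 genes (edgeR's quasi-likelihood test, adjusted p under 0.05), which does not mean that it differed from each line. The log2 difference was -1.82 for Nitab4.5_0000037g0180, -1.90 for Nitab4.5_0001477g0010 and -1.76 for Nitab4.5_0003603g0040, for all of which L16 had the highest level. None of these passed the test of L15 against L14. The difference was 1.5 for Nitab4.5_0002908g0120, where L15 lay above both lines but did not pass against L14 (adjusted p = 0.143). For Nitab4.5_0003290g0070, which had no counts in L14, the fitted difference of 4.70 depends on the fit and is no measure of size. Against L16 that gene did not pass (adjusted p = 0.667).

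Spike-in sequences, which are added RNAs and not plant transcripts, also differed between L15 and the wild type. Of 62 tested, 15 passed an adjusted p under 0.05 (9 higher and 6 lower in L15; 25 at an unadjusted p under 0.05), with a median absolute log2 fold change of 0.40 and a largest of 0.92. The part of this difference in the gene results was not tested beyond the models with a spike-in covariate.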

How the results depend on the processing

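With all libraries kept, genes higher, genes lower, L15-only higher and L15-only lower numbered 869, 504, 86 and 80 when a log2 fold change of at least 1 was required, 329, 202, 29 and 26 with the SIRV4 and SIRV7 covariate, and 523, 307, 29 and 44 with the first spike-in component, added after seeing the data. Of the 142 and 130 L15-only genes, 6 and 3 were again L15-only with the SIRV4 and SIRV7 covariate, and 10 and 7 with the spike-in component. An unadjusted p of at least 0.05 in both other lines left 34 and 36 L15-only genes. Genes that differed from the mean of L14 and L16 numbered 38 with DESeq2's Wald test and 85 without the filter on low counts. Under the other alternatives with all libraries, these counts stayed within 1.5 times the reported ones. In a fit of only the 6 libraries of L15 and the wild type, 1322 genes were higher and 1128 lower, against 1600 and 1290 reported. The L15-only genes themselves changed more, and without the filter on low counts 85 and 71 of the reported ones remained. When each of the 12 libraries was left out in turn, genes higher ranged from 837 to 1661, genes lower from 526 to 1576, L15-only higher from 42 to 252, L15-only lower from 23 to 237, and genes different from the mean of L14 and L16 from 1 to 8. Same-numbered libraries of L15 and the wild type showed no shared deviation (correlations of -0.0121, 0.0287 and -0.00459), so the numbers do not pair them. Between L15 and L14 these correlations were 0.171, 0.0876 and 0.151, and between L15 and L16 0.164, 0.0561 and 0.188, and every L15 library correlated best with its own number in each line, a hint from the data and not from the design. The replicate block gave 1915 and 1593 genes, 163 and 149 L15-only genes, and 5 different from the mean of L14 and L16. The share of called genes that were higher lay between 51.3% and 63.3% under every setting. No log2 fold change of a printed gene changed sign. Against the wild type, Nitab4.5_0001198g0330 kept its call under all 23 alternatives. The difference from the mean of L14 and L16 kept its call in 22 of 22 for Nitab4.5_0003290g0070, 21 for Nitab4.5_0002908g0120, 19 for Nitab4.5_0000037g0180, 17 for Nitab4.5_0001477g0010 and 12 for Nitab4.5_0003603g0040. The causes of these changes were not tested. Depth limits the weakly expressed genes: in the lowest class by level the median standard error of the log2 fold change was 0.794.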
